A study of Mus musculus with 8 samples.

Results

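The genes described here are 35 imprinted genes of the mouse, taken as a fixed list of symbols and read in RNA sequencing counts from embryonic hearts. All 35 symbols matched a row of the deposited count table, which lists 49315 genes, and all 35 passed the filter on low counts that left 16377 genes for testing. The libraries came from hearts of C57BL/6 embryos at E9.5, a stage at which the heart tube is looping. There were 4 libraries labelled Female and 4 labelled Male; no treatment or mutation is named for either group. Embryos were sexed by a genotyping reaction for the Y-linked gene Sry on tissue outside the heart. The labels do not state whether a library held 1 heart or several, or which embryos shared a litter, so every p-value measures the spread between these libraries. The study's design text sets male against female hearts; the members were also described over all 8 libraries as one set.

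Imprinted genes are transcribed mainly or only from the copy inherited from one parent, because a methylation mark set in the germ line is kept at a control region near them. They lie in domains in which a control region often governs protein-coding genes on one parental chromosome and a long non-coding RNA on the other. Many act on growth of the embryo and placenta: genes expressed from the paternal copy, such as the growth factor Igf2, tend to favour growth, and several maternally expressed genes, such as the cell cycle inhibitor Cdkn1c, restrain it. By background knowledge, 20 members are expressed from the paternal copy and 14 from the maternal copy, while Gnas has transcripts of both kinds. Some of these biases hold only in certain tissues, Ube3a being maternal in neurons and Trappc9 in brain. The counts carry no allele information, so nothing below measures imprinting itself.

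The members fall into 16 domains. The densest stretches are on chromosomes 7 and 12, all positions being those of the deposited tables on GRCm38. The H19 and Igf2 domain spans H19 at chr7:142575529-142578143 and Igf2 at chr7:142650766-142666816. The neighbouring domain holds Cdkn1c at chr7:143458339-143461050, Slc22a18, Phlda2 and the non-coding Kcnq1ot1 at chr7:143212155-143296549. On chromosome 12 lie Dlk1 at chr12:109452823-109463336, Meg3 at chr12:109541001-109571726, Rtl1, Rian at chr12:109603940-109661716 and Mirg at chr12:109729764-109749460. On chromosome 6, Mest at chr6:30723547-30748465 and Copg2 at chr6:30747554-30896794 run toward each other and overlap at their ends.

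Several members are precursors of microRNAs, the short RNAs that pair with target transcripts through bases 2 to 8 from their 5′ end, the seed. RefSeq on GRCm38.p6 places 56 mature microRNAs from 30 microRNA genes inside 8 members, 26 of the mature forms being in Mirg and 13 inside Rtl1, mostly on the opposite strand. The forms below are shown because they lie in the genes whose levels or covariation are described next. Capitals mark the seed.
miR-675-5p, in H19: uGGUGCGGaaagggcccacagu
miR-675-3p, in H19: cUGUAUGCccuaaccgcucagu
miR-483-3p, in Igf2: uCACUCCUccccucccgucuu
miR-335-5p, in Mest: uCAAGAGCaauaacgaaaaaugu
miR-370-3p, in Rian: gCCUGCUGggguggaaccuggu
miR-127-3p, antisense to Rtl1: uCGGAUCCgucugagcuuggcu
miR-410-3p, in Mirg: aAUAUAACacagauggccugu
miR-496a-5p, in Mirg: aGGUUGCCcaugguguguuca
miR-453, in Mirg: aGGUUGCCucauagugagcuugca
Among the 56 mature forms, only 1 seed occurs more than once: miR-496a-5p and miR-453, both in Mirg, carry the seed GGUUGCC. The rows of these microRNA genes in the count table hold between 0 and 14 counts per library. The library kit named in the labels is not one for short RNAs, and the values below are those of the host transcripts.

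The 2 chromosome 6 neighbours and Meg3 are shown with the 250 bases before their RefSeq starts, on GRCm38.p6 and read 5′ to 3′ on the gene's strand, since their levels moved with those of a neighbour or with a property of the library. Capitals mark TGCCGC or its reverse complement GCGGCA, the letters that the imprint-maintaining protein Zfp57 binds when they are methylated.
Mest, chr6:30737800-30738049, plus strand: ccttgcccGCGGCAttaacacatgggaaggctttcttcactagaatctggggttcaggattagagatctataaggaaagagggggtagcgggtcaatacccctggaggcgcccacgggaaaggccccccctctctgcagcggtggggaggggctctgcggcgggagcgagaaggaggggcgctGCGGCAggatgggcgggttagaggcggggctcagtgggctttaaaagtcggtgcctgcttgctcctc
Copg2, chr6:30896795-30897044, minus strand: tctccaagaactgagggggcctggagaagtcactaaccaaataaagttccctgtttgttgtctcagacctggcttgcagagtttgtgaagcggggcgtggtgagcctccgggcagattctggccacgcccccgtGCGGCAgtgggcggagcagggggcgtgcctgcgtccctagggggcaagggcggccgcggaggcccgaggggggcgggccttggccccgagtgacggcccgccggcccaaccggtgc
Meg3, chr12:109540746-109540995, plus strand: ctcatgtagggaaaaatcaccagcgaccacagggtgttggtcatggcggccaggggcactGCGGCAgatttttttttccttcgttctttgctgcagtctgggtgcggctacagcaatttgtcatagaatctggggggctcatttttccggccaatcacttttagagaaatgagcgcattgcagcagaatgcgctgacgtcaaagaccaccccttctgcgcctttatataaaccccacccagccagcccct
Rian, chr12:109603695-109603944, plus strand: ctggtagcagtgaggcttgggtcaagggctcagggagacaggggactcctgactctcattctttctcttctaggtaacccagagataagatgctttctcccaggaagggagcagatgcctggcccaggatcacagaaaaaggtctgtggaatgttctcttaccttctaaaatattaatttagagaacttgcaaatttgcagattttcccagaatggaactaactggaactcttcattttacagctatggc
The Mest window shown holds 2 matches and 14 CpG dinucleotides, and the Copg2 window 1 match and 19 CpG. The Meg3 window shown has 1 match and 10 CpG, and that of Rian, which is shown because its level parted from that of Meg3, has neither. RefSeq gave 42 such windows for 27 members, and 8 of them, or 19.1%, held TGCCGC on either strand. Of those 8, 2 are Mest windows that overlap almost entirely, so the same matches count in both; a further window each of Mest and Meg3, at other starts, held none. Over all 32851 windows of the same length the share was 8.68%. The members with a match were Mest, Copg2, Meg3, Plagl1, Nap1l5, Zim1 and Zdbf2. Members' windows held a median of 10 CpG against 6 over all windows. A match is a description of the letters and shows no binding.

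Total counts ranged from 20105913 to 51134291 per library. Xist, transcribed from the inactive X chromosome, lay between 225 and 277 CPM (counts scaled by library size) in the libraries labelled Female and between 0.34 and 0.612 in those labelled Male, and the 4 Y-linked genes checked were above 8 CPM only in the latter. The 10 cardiomyocyte markers were all above 1 CPM in every library, and their summed level ran from 34320 CPM in Female 4 to 56590 CPM in Male 2. Markers of foregut and liver were highest in Female 1 and Male 2. The summed level of 7 foregut epithelium markers was 40.2 CPM in Female 1, 22.0 in Male 2, 14.8 in Female 3 and 4.07 to 7.94 elsewhere. The 7 hepatic markers summed to 72.1 CPM in Female 1, 28.6 in Male 2, 15.0 in Male 4 and 0.732 to 3.14 elsewhere. Summed levels of neural and neural crest markers were lowest in Female 1, at 8.92 and 32.3 CPM, and highest in Male 3, at 23.9 and 47.2 CPM. On average, most of the neural sum was Tubb3, with a mean of 10.59 CPM. Nearly all of the neural crest sum was Ednrb, with a mean of 34.98 CPM. Among the other neural crest markers, the highest mean was 1.488 CPM, for Tfap2a. These sums therefore mainly follow single genes, and the neural or neural crest content of the libraries was not tested. Male 2 and Female 4 stood at the ends of a gradient over all genes. The first principal component, which took 62.0% of the variance, was 59.5 in Male 2 and -35.0 in Female 4, with the other 6 libraries between -24.5 and 15.0. The share of counts from mitochondrial genes followed the same order, from 0.707% in Male 2 to 1.72% in Female 4. For several results that rest on these libraries, values without 1 or both of them are also given.

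The heart at this stage expressed most members, and a few of them at very high levels. H19, a non-coding RNA, had 2573 ± 324 CPM per kilobase of exon (SD, n = 8), which placed it 13th of the genes tested. Cdkn1c followed with 1061 ± 176 CPM per kilobase, at rank 46, and Igf2 with 541 ± 62.8, at rank 128. At the other end, Rtl1, Slc22a18 and Magel2 had means of 0.484, 0.453 and 0.274 CPM per kilobase. Of the 35 members, 33 had at least 1 CPM in every library, 29 a mean of at least 10 CPM and 15 a mean of at least 100 CPM. All members together took between 1.30% of the counts in Male 2 and 1.99% in Female 4. H19, Igf2 and Cdkn1c made up 63.5% to 69.1% of the members' CPM in each library. CPM were scaled with factors for composition (TMM), and the order of the members' levels is taken per kilobase. The length used was that of all annotated exons of a gene together, which can exceed that of a single transcript. The order therefore depends on the annotation. Meg3 had rank 324 by CPM and 2216 per kilobase, and Ube3a had rank 1147 and 5476.

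**Figure D1:**
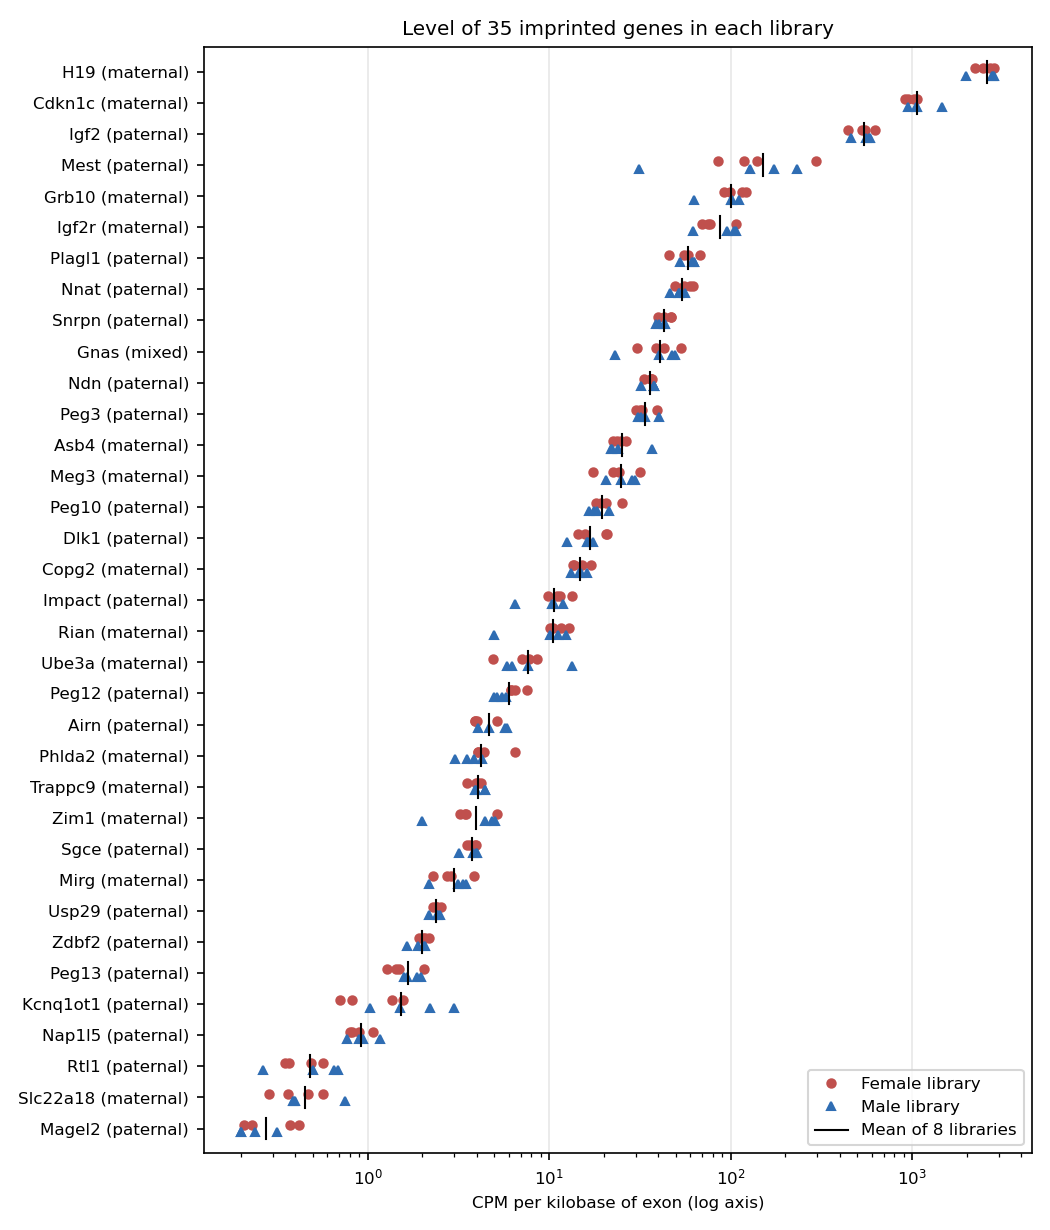
The horizontal axis gives CPM per kilobase of exon on a log scale for each of the 35 imprinted genes, with circles for the 4 Female and triangles for the 4 Male libraries, a bar at the mean of the 8, and the usual parental copy in brackets. H19, Cdkn1c and Igf2 stand apart at the top with means of 2573, 1061 and 541, and the library points of Mest spread further than those of any other member.

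In the order of levels per kilobase, ranges over the 8 libraries failed to overlap at 4 of the 34 steps between neighbours: H19 above Cdkn1c, Cdkn1c above Igf2, Igf2 above Mest, and Nap1l5 above Rtl1. The other 30 steps had overlapping ranges. Snrpn, for instance, was above Gnas in 5 of 8 libraries and Dlk1 above Copg2 in 4. At 5 of these 30 steps the upper gene was nevertheless higher in 8 of 8 libraries: Nnat above Snrpn, Peg3 above Asb4, Copg2 above Impact, Usp29 above Zdbf2 and Zdbf2 above Peg13.

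Among growth regulators, H19 and Igf2 share a control region and enhancers on chromosome 7, H19 being maternal and Igf2, which encodes insulin-like growth factor 2, paternal. H19 measured 5241, 5871, 6417 and 6728 CPM in Female 1 to 4 and 6642, 4691, 6740 and 6503 CPM in Male 1 to 4. Igf2 measured 2527, 3141, 3038 and 3584 CPM in the females and 3373, 2638, 3308 and 3174 CPM in the males. Female 1 and Male 2 were the lowest libraries for both genes, and the sexes overlapped. The ratio of H19 to Igf2 per kilobase stayed between 4.29 and 5.10, a 1.19-fold range, whereas each gene alone ranged 1.44-fold and 1.42-fold. In these bulk libraries, fewer cells of a type and less RNA per cell cannot be told apart.

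Cdkn1c encodes an inhibitor of cyclin-dependent kinases. It measured 1931, 2092, 2185 and 1863 CPM in the females and 1933, 2999, 2168 and 2131 CPM in the males. The 7 libraries other than Male 2 lay within a narrow band, and Male 2, which also had the highest cardiomyocyte marker sum, was above all of them. Its SD of log2 CPM over the 8 libraries was 0.215, and 0.0932 without Male 2. An antisense gene, Gm44732, overlaps 30.7% of the exon bases of Cdkn1c.

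The receptors and signal inhibitors of the same axis were also abundant. Igf2r, whose product carries insulin-like growth factor 2 to the lysosome for breakdown, had 87.2 ± 18.4 CPM per kilobase (SD, n = 8). Per library it measured 654, 708, 729 and 1009 CPM in the females and 1012, 584, 985 and 907 CPM in the males. Grb10, an adaptor that dampens insulin and insulin-like growth factor receptor signalling, had 101 ± 18.3 CPM per kilobase. Grb10 measured 1050, 905, 833 and 1112 CPM in the females and 923, 570.3, 1016 and 910 CPM in the males. Male 2 was lowest for both. Phlda2, a regulator of placental growth in the Cdkn1c domain, had only 4.22 ± 1.03 CPM per kilobase, and Slc22a18, a transporter gene of that domain, 0.453 ± 0.147.

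Transcription factors of the list sat in the middle of the range. Plagl1, a zinc finger factor of the paternal copy, had 58.5 ± 7.11 CPM per kilobase and measured 534, 454, 359 and 433 CPM in the females and 409, 494, 481 and 494 CPM in the males. Peg3, a large zinc finger protein, had 33.9 ± 3.81 CPM per kilobase. It measured 524, 424, 432 and 401 CPM in the females and 428, 536, 413 and 452 CPM in the males, with Female 1 and Male 2 above the rest. Zim1, a zinc finger gene beside Peg3 that is expressed from the other parental copy, had 3.96 ± 1.10 CPM per kilobase. Zdbf2, a zinc finger gene of chromosome 1, measured 27.7, 24.3, 25.4 and 26.2 CPM in the females and 26.1, 21.0, 23.9 and 26.2 CPM in the males.

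Long non-coding RNAs spanned the range below H19. Meg3 had 24.9 ± 4.79 CPM per kilobase, Rian, a host of small nucleolar RNAs, 10.5 ± 2.45, and Mirg, the microRNA host, 3.0 ± 0.584. Airn, whose transcription across Igf2r silences the paternal Igf2r copy, had 4.66 ± 0.821, Peg13 1.67 ± 0.276 and Kcnq1ot1 1.52 ± 0.758 CPM per kilobase. Per kilobase, Airn stood at 0.0375 to 0.0754 of Igf2r. Airn was counted over 3583 annotated exon bases within a unit at chr17:12741311-12860122. Its value per kilobase, its ratio to Igf2r and its place among these RNAs depend on that annotation. Kcnq1ot1 is annotated as 1 exon of 84395 bases, so its value per kilobase averages over the whole unit. That exon lies within the Kcnq1 gene on the opposite strand, and reads from the 2 strands may not be told apart, since no source used here gives the strand setting of the counting.

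The Snrpn domain, whose human counterpart is that of Prader-Willi and Angelman syndromes, was expressed unevenly. Snrpn, a core protein of splicing particles, and Ndn, a MAGE family protein, had 42.8 ± 2.96 and 36.1 ± 2.20 CPM per kilobase. Ube3a, a ubiquitin ligase, had 7.67 ± 2.56 and Peg12 5.98 ± 0.818. Magel2, another MAGE family gene, was the lowest member at 0.274 ± 0.0858 CPM per kilobase, with 21 to 95 counts per library. Snrpn measured 101, 101, 92.8 and 86.2 CPM in the females and 92.6, 84.2, 87.0 and 93.7 CPM in the males, a 1.20-fold range. Snrpn shares 34.1% of its exon bases with other genes, mostly on the same strand, where Snurf and Gm38393 lie. Ube3a shares 27.3% with antisense genes such as Snhg14.

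Of genes derived from retroelements, Peg10 had 19.7 ± 2.77 and Rtl1 0.484 ± 0.150 CPM per kilobase. Both act in the placenta. Peg10's neighbours Asb4, a SOCS box protein, and Sgce, which encodes epsilon-sarcoglycan, had 25.3 ± 4.88 and 3.75 ± 0.282. Asb4 measured 104, 93.3, 97.8 and 88.3 CPM in the females and 86.2, 145, 87.2 and 94.3 CPM in the males, so that Male 2 alone was high. Dlk1, a membrane protein related to Notch ligands, had 16.8 ± 2.81 CPM per kilobase. Nnat, a small membrane protein, measured 109.5, 102, 113 and 90.3 CPM in the females and 95.6, 103, 84.4 and 94.9 CPM in the males. Nnat was lowest in Male 3, and its sexes overlapped. Nap1l5 measured 1.98, 1.51, 1.47 and 1.66 CPM in the females and 1.43, 1.66, 2.17 and 1.73 CPM in the males.

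Members differed among themselves in how steady they were. The SD of log2(CPM + 0.5) over the 8 libraries had a median of 0.241 for the members and 0.208 for all genes tested, and 20 of 35 members were above the latter. Without Male 2 these medians were 0.178 and 0.162. The steadiest were Usp29 with an SD of 0.0700, Ndn with 0.0905, Snrpn with 0.0988 and Trappc9, a vesicle transport gene, with 0.105. Usp29, a ubiquitin peptidase gene that starts back to back with Peg3, measured 43.5, 43.0, 46.0 and 41.2 CPM in the females and 44.0, 43.4, 39.5 and 45.5 CPM in the males. Ndn measured 124, 135, 137 and 134 CPM in the females and 139.9, 118, 140.1 and 139 CPM in the males. Trappc9 measured 22.5, 26.7, 25.3 and 25.8 CPM in the females and 28.2, 28.4, 25.2 and 24.9 CPM in the males. For Usp29, the SD was at the 2.61 percentile of all genes tested. The order depends on the scaling: with library size alone the SD was 0.0989 for Usp29, 0.113 for Trappc9, 0.150 for Snrpn and 0.173 for Ndn.

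Mest varied most. It encodes a protein with a hydrolase fold and is typical of mesodermal tissue of the embryo. It measured 339, 552, 466 and 1160 CPM in Female 1 to 4 and 686, 124, 913 and 503 CPM in Male 1 to 4, a 9.33-fold range from Male 2 to Female 4. Its SD of 0.985 on the log2 scale was at the 99.7 percentile of all genes tested, and was 0.605 without Male 2. Kcnq1ot1 came next with an SD of 0.695, at the 98.4 percentile, and of 0.573 without Male 2. It measured 116, 69.4, 133 and 59.7 CPM in the females and 127, 252, 87.4 and 187 CPM in the males. For this RNA the order of the end libraries was turned around: Male 2 was highest and Female 4 lowest, with a 4.22-fold range.

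Zim1 and Rian followed with SDs of 0.452 and 0.432. Zim1 measured 26.2, 28.1, 27.7 and 41.8 CPM in the females and 39.2, 16.2, 40.6 and 36.0 CPM in the males. Rian measured 204, 183, 178 and 226 CPM in the females and 216, 87.2, 196 and 176 CPM in the males. Rian rested on 1 library: without Male 2 its SD was 0.141. For Zim1 it was 0.286 without Male 2. Male 2 was the lowest library for 15 members and the highest for 7, while over all genes tested it was lowest for 33.4% and highest for 31.9%. Female 1 was the highest for 10 of 35 members and for 10.1% of all genes tested, and Female 4 for 9 of 35 members and for 21.1% of all genes tested.

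Covariation over the 8 libraries was measured for 30 pairs, 22 of members of the same domain and 8 of members of different domains among H19, Igf2, Cdkn1c, Plagl1, Dlk1 and Meg3, with exact 2-sided permutation tests over 40320 pairings, for which the smallest possible p is 2.48e-05. Of the 30 pairs, 2 had a Benjamini-Hochberg adjusted p below 0.05, both within a domain. Pairs across domains such as Mest with Gnas or Ube3a were not tested, so this count does not set covariation within domains apart. The pairs were chosen with earlier results of these data known, so their p-values are not those of a blind choice. Meg3, Mirg, Mest and Copg2, the genes of the 2 pairs, also each had a called slope on the mitochondrial share, described below. The permutation test cannot tell a relation of 2 genes from the gradient over all genes. Meg3 and Mirg moved together with Pearson's r = 0.955 (exact permutation p = 0.00025, adjusted p = 0.00744) and Spearman's rho = 0.976 (exact permutation p = 0.0004, adjusted p = 0.0119). Mirg measured 28.2, 19.9, 21.1 and 16.8 CPM in the females and 22.9, 25.4, 15.9 and 24.6 CPM in the males. Meg3 measured 574, 407, 439 and 317 CPM in the females and 453, 535, 371 and 515 CPM in the males. Female 1 was highest for both and Female 4 and Male 3 were the lowest for both. Without the 2 libraries farthest from the median of Meg3, Female 1 and Female 4, r was 0.960. The adjusted p was above 0.05 for every pair when Female 1 was left out, or Female 1 and Male 2 together, and r of Meg3 and Mirg was then 0.937 and 0.915.

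Rian, which lies between Meg3 and Mirg and is read in the same direction, did not share this pattern. For Meg3 and Rian r was -0.468 and rho was -0.429, with exact permutation p-values of 0.253 and 0.299 (adjusted 0.506 and 0.561). The ratio of Mirg to Meg3 per kilobase ranged 1.23-fold over the libraries, from 0.107 to 0.132. That of Rian to Meg3 ranged 4.38-fold, from 0.169 in Male 2 to 0.739 in Female 4, and 2.08-fold without Male 2. The paternally expressed Dlk1 of the same domain gave r = 0.158 with Meg3 (exact permutation p = 0.704, adjusted p = 0.880; rho = 0.333, exact permutation p = 0.428). Rtl1 gave r = 0.734 with Meg3 (exact permutation p = 0.0393, adjusted p = 0.171; rho = 0.643, exact permutation p = 0.0962). With Dlk1, Rtl1 gave r = 0.0498 (exact permutation p = 0.901, adjusted p = 0.932). Both values of r for Dlk1 depended on Male 2. Without that library r was 0.586 for Meg3 and Dlk1 and 0.49 for Dlk1 and Rtl1. Leaving out any 1 library gave r from -0.18 to 0.586 and from -0.092 to 0.49. Rtl1 had only 38 to 143 counts per library, and microRNA genes on the opposite strand cover 8.12% of its exon bases. How far reads from the other strand entered its counts was not tested.

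Mest and Copg2, which encodes a subunit of the coat of transport vesicles, gave r = 0.864 (exact permutation p = 0.0027, adjusted p = 0.0406) and rho = 0.905 (exact permutation p = 0.00456, adjusted p = 0.0435). Copg2 measured 70.0, 77.8, 69.7 and 86.8 CPM in the females and 74.9, 67.7, 82.9 and 76.9 CPM in the males. Both genes were lowest in Male 2 and highest in Female 4, but Copg2 ranged 1.28-fold where Mest ranged 9.33-fold. Without Female 4 and Male 2, the libraries farthest from the median of Mest, r was 0.835 and the adjusted p by the exact permutation test 0.226. The adjusted p was also above 0.05, between 0.0536 and 0.177 by the exact permutation test, on leaving out Female 1, Female 2, Female 4, Male 2, Male 3 or Male 4 alone, with r between 0.819 and 0.909. The 2 genes share 912 exon bases on opposite strands, 23.1% of those of Mest and 17.8% of those of Copg2. How far reads from that stretch were counted for the other gene was not tested.

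H19 and Igf2 gave r = 0.893 (exact permutation p = 0.00689, adjusted p = 0.0592) and rho = 0.881 (exact permutation p = 0.00724, adjusted p = 0.0435). Without Female 1 and Male 2, the farthest libraries for H19, r was 0.605, so the relation leans on those 2 libraries together. Leaving out any 1 library gave r between 0.883 and 0.915. Peg3 and Zim1 gave r = -0.817 (exact permutation p = 0.00789, adjusted p = 0.0592) and rho = -0.881 (exact permutation p = 0.00724, adjusted p = 0.0435). Without the same 2 libraries r was -0.413. Peg10 and Sgce gave r = -0.729 (exact permutation p = 0.0427, adjusted p = 0.171) and rho = -0.929 (exact permutation p = 0.00223, adjusted p = 0.0335). Without Male 2 their r was -0.932 (exact permutation test, adjusted p = 0.0357). Scaling by library size alone moved these pairs in both directions. For H19 and Igf2 r was then 0.951, with an adjusted p of 0.00372 by the exact permutation test, while r was -0.135 for Peg10 and Sgce and -0.311 for Peg3 and Zim1. For deviations from the mean of each sex, H19 and Igf2 gave r = 0.894 (exact permutation test, adjusted p = 0.0441) and Peg3 and Zim1 r = -0.829 (adjusted p = 0.0345 by the same exact test). Over all pairs of members the median r was 0.132 for the 36 pairs within a domain and 0.00541 for the 559 pairs from different domains, and 0.240 and -0.0189 without Male 2. These medians share libraries and depth and are given as a description. A median near 0 does not show that single pairs from different domains were unrelated.

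**Figure D2:**
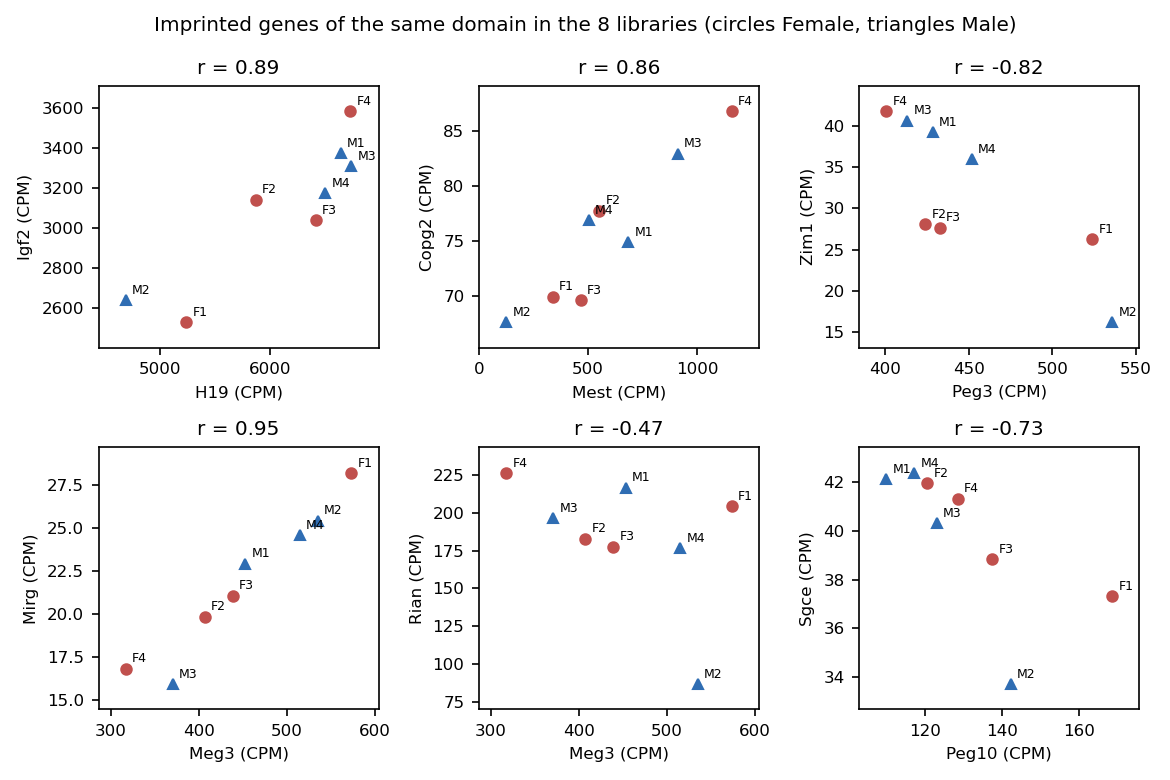
Each panel sets the CPM of a member against that of another member of its domain in the 8 libraries, with circles for Female (F) and triangles for Male (M), Pearson's r of log2(CPM + 0.5) above it, and axes that do not start at 0 except that of Mest. Meg3 and Mirg lie close to a line at r = 0.95, whereas Rian lies off the pattern of Meg3 with a low value in Male 2 and a high one in Female 4.

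The gradient among the libraries was then set against the members. This comparison was chosen after the data had been seen. The mitochondrial share ranks the libraries as the first principal component of the same counts does. Its p-values therefore cannot tell a relation to the share from that gradient. Each of 16348 nuclear genes was fitted with edgeR's quasi-likelihood test on the log2 of the mitochondrial share of the library, and slopes are log2 changes per doubling of that share, with p-values adjusted by Benjamini-Hochberg over all of these genes. The slope was called for 8093 of the 16348 genes, a background of 49.5%. Of the 35 members it was called for 20, or 57.1%, a share near that background; 11 rose and 9 fell with the share. The median slope was -0.00322 over the members and 0.0193 over all genes. The count in this fit therefore says little of the members as a list, and the single slopes differ widely.

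Mest rose by 2.33 ± 0.16 per doubling (SE; edgeR adjusted p = 4.11e-07), and only 173 of the nuclear genes had a larger absolute slope. Its log2 deviation from the mean of the 8 libraries ran from -2.01 in Male 2 through -0.57 in Female 1 and -0.10 in Female 3 to 0.87 in Male 3 and 1.21 in Female 4. Next were Zim1 with a slope of 1.07 ± 0.12, Gnas with 0.94 ± 0.10, Rian with 0.82 ± 0.23 and Igf2r with 0.69 ± 0.11. Gnas, the alpha subunit of the stimulatory G protein, measured 341, 482, 436 and 593 CPM in the females and 535, 258, 552 and 451 CPM in the males. Impact, a regulator of translation under stress, had a slope of 0.64 ± 0.13 and measured 39.6, 37.8, 33.8 and 45.7 CPM in the females and 36.5, 22.2, 41.1 and 35.5 CPM in the males. Grb10, H19, Igf2, Copg2 and Sgce rose by 0.57, 0.41, 0.37, 0.28 and 0.24.

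Ube3a fell by 1.02 on the log2 scale per doubling of the share (SE 0.09; edgeR adjusted p = 4e-07). It measured 176, 147, 161 and 102 CPM in the females and 128, 274, 120.5 and 157 CPM in the males, so that the order of the 8 libraries was the exact reverse of that for Mest. Slc22a18, Rtl1 and Asb4 had slopes of -0.86, -0.69 and -0.55, and Meg3 and Mirg of -0.54 and -0.51. Cdkn1c, Peg3 and Nnat had slopes of -0.41, -0.34 and -0.25. Kcnq1ot1 had a slope of -1.24 ± 0.44 that was not called (edgeR adjusted p = 0.0567).

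The fit was repeated without the end libraries. Without Male 2, 14 members, or 40%, were called, 7 in each direction, against a background of 25.9%, Dlk1 and Peg13 being new among them. Calls were lost for 8 members. The slope shrank from 0.82 to 0.23 for Rian, from 0.57 to 0.22 for Grb10, from 0.64 to 0.32 for Impact, from 0.24 to 0.16 for Sgce and from -0.41 to -0.08 for Cdkn1c. For H19 and Slc22a18 it moved less, from 0.41 to 0.33 and from -0.86 to -0.62, and for Rtl1 it grew from -0.69 to -0.85 while its call was lost. Without both Female 4 and Male 2 the background was 10.1% and 9 members, or 25.7%, were called. In that fit Mest, Zim1, Igf2r and Gnas rose, with slopes of 1.81, 0.97, 0.90 and 0.89. Ube3a, Dlk1, Nnat, Peg10 and Phlda2 fell, with slopes of -0.77, -0.63, -0.58, -0.71 and -1.24. Without Female 1 and Male 2, 11 members, or 31.4%, were called against a background of 20.6%. In each of these smaller fits the members' share was above the background. Whether it was so by more than chance was not tested. With library size in place of TMM factors, 16 members, or 45.7%, were called against a background of 55.1%, 14 rising and 2 falling, as the median slope of all nuclear genes moved from 0.0193 to 0.241. The call of Mest held in each of these fits. Other measures differed between the same end libraries. The cardiomyocyte marker sum was 56590 CPM in Male 2 and 34320 CPM in Female 4. It did not follow the share throughout, being 35600 CPM in Female 1 at a share of 0.999%. The sum of 7 endocardial and endothelial markers was 382 CPM in Male 2, 422 in Female 1, 420 in Female 3 and 547 in Female 4. In the other libraries it lay between these, from 456 to 508 CPM. The slope of the deviations of all genes on their log2 length was -0.0878 in Male 2 and 0.0755 in Female 4. The part of these, and of the foregut and hepatic markers high in Female 1 and Male 2, in the members' slopes was not tested.

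**Figure D3:**
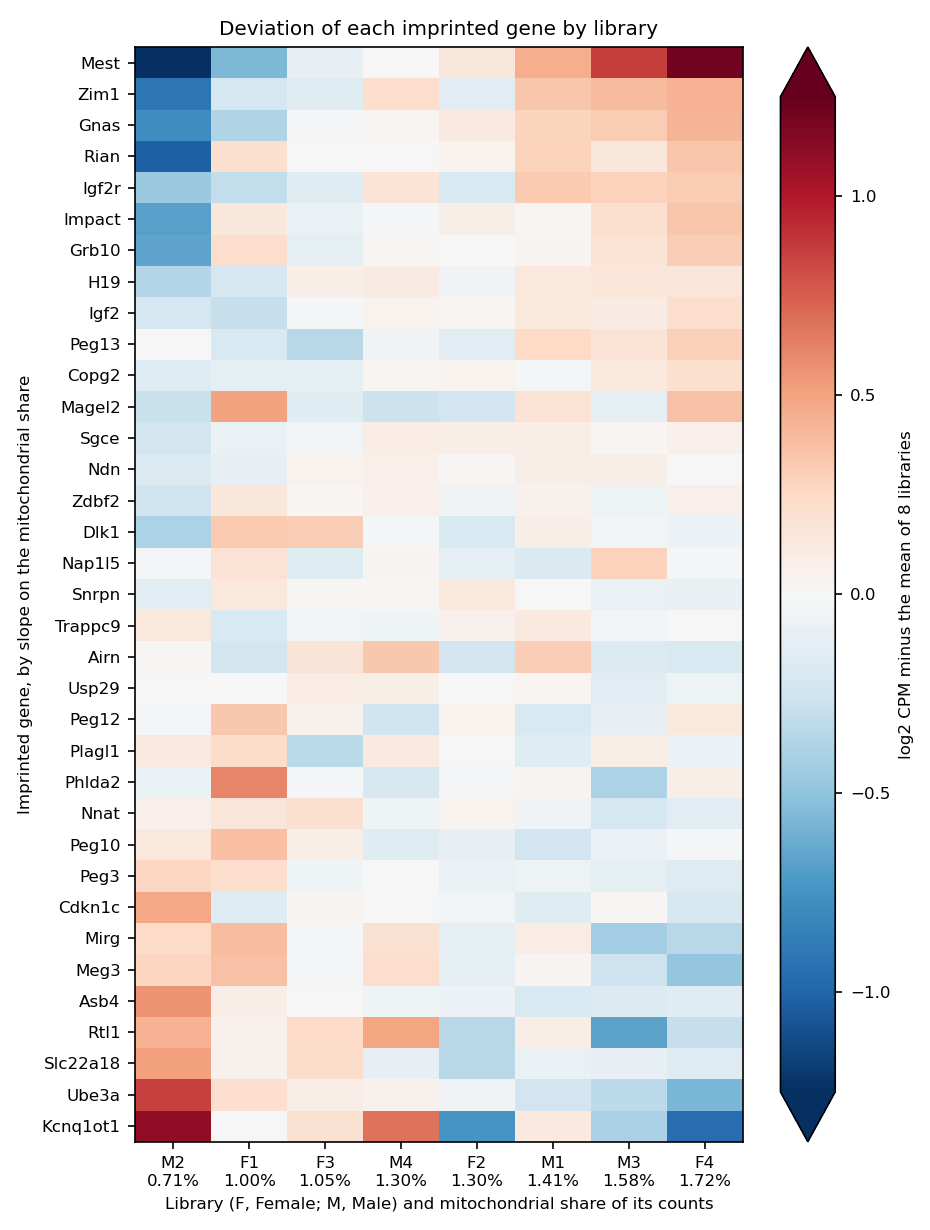
Rows are the 35 members ordered by their slope on the mitochondrial share, columns are the 8 libraries ordered by that share (printed below each in percent), and colour is log2 CPM minus the mean of the 8 libraries; values past either end of the colour bar take its end colour. Male 2 on the left and Female 4 on the right hold the strongest colours, with Mest from -2.01 to 1.21 at the top and Kcnq1ot1 and Ube3a reversed at the bottom.

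**Figure D4:**
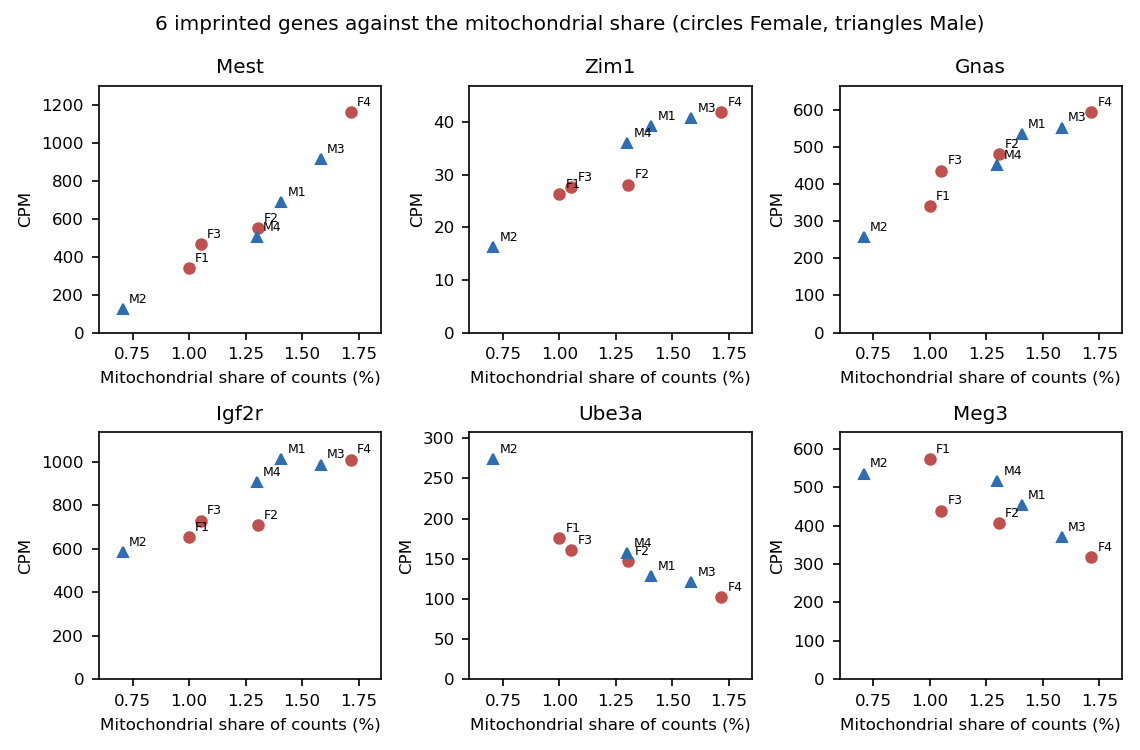
Each panel plots CPM of 1 member (vertical axis, from 0) against the mitochondrial share of counts in percent for the 8 libraries, with circles for Female (F) and triangles for Male (M). Mest, Zim1, Gnas and Igf2r are lowest in Male 2, at a share of 0.707%, and Ube3a is highest there, while Meg3 is lowest in Female 4, at 1.72%.

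Male and female hearts were compared with edgeR's quasi-likelihood test over the whole table, 4 against 4 libraries. No member was called at an adjusted p below 0.05. The background was low as well: 6 of 16377 genes, or 0.0366%, were called. Only 1 member had an unadjusted p below 0.05 in edgeR, against 2.24% of all genes tested; DESeq2 called none and gave 2 members an unadjusted p below 0.05, and limma-voom called none and gave 1. The log2 fold change was above 0 for 19 of 35 members, with a median of 0.0194, and for 52.9% of all genes tested, with a median of 0.0105. Of the 14 maternally expressed members 10 had a higher value in males, and of the 20 paternally expressed members 9. This split was not tested. The number of members higher in males was 15 to 21 when 1 library was left out, and 16 with library size alone.

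The member with the smallest p was Peg12, a binding partner of the kinase Gsk3 in the Snrpn domain. It measured 19.9, 16.2, 16.3 and 17.2 CPM in the females and 13.7, 15.4, 14.6 and 13.1 CPM in the males. Every female library was above every male library, which held for no other member and for 2.25% of all genes tested. The log2 fold change, male minus female, was -0.30 ± 0.10 (SE; edgeR adjusted p = 0.9995). Phlda2 had the next smallest p among members lower in males. It measured 7.32, 4.57, 4.56 and 4.94 CPM in the females and 4.76, 4.34, 3.40 and 3.97 CPM in the males, with a log2 fold change of -0.38 ± 0.19 (SE; edgeR adjusted p = 0.9995). The female mean of Phlda2 leaned on Female 1, and the log2 fold change without it was -0.18.

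Of members higher in males, Kcnq1ot1 had the smallest p, with a log2 fold change of 0.79 ± 0.35 (SE; edgeR adjusted p = 0.9995). Its sexes overlapped, and without Male 2, the highest library, the log2 fold change was 0.51. Airn measured 14.0, 14.0, 18.4 and 14.4 CPM in the females and 20.6, 16.7, 14.6 and 20.9 CPM in the males. Its log2 fold change was 0.27 ± 0.15 (SE; edgeR adjusted p = 0.9995). For Mest, the most variable member, the log2 fold change of -0.18 had an SE of 0.55. A sex difference of the size of that SE would not have been detectable for Mest here, while for Usp29 the SE was 0.08.

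**Figure D5:**
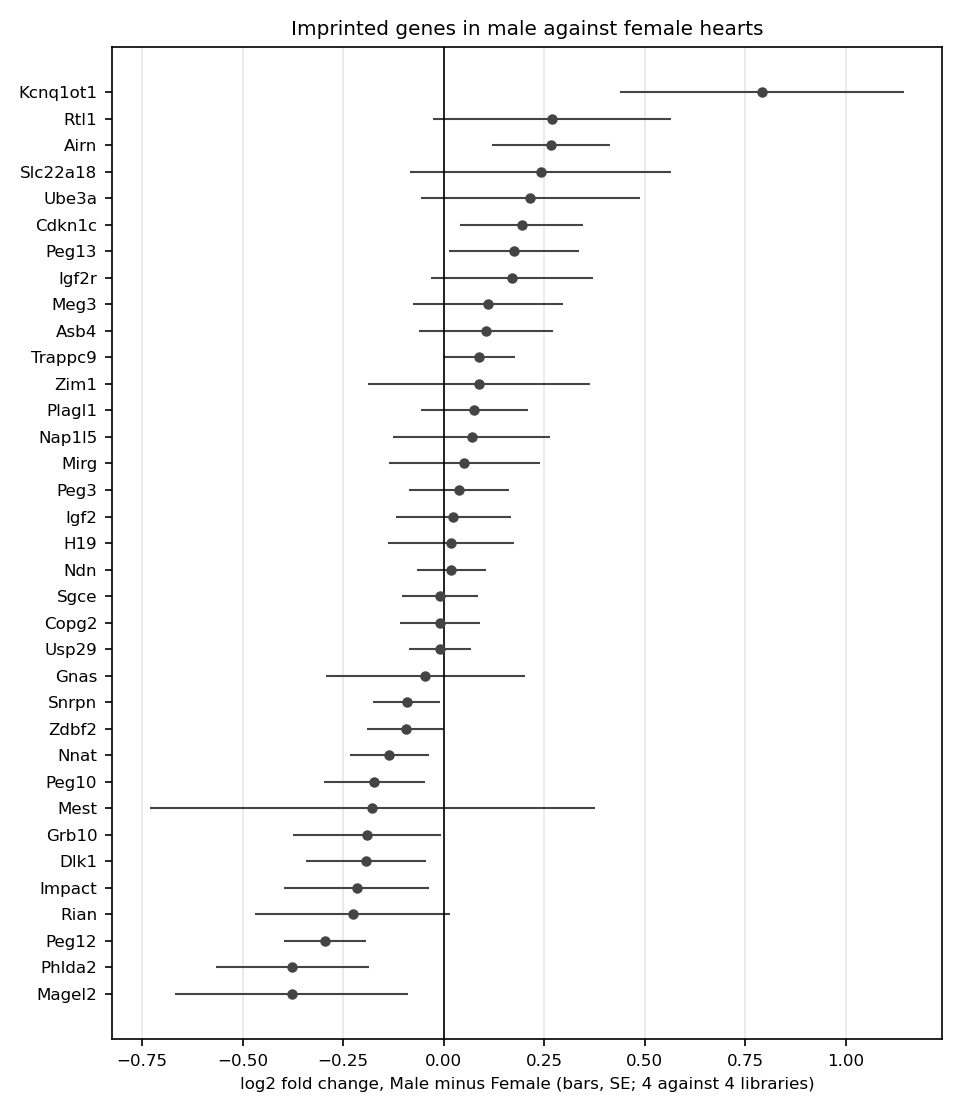
Points are log2 fold changes, male minus female, of the 35 members from edgeR with 4 against 4 libraries, and bars are 1 SE. No member passed an adjusted p of 0.05; Kcnq1ot1 at 0.79 has the largest value and Mest, at -0.18, the widest bar.

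Other genes tied to these domains or to the same pathway gave a similar result. Of 50 further imprinted genes, 41 were tested and none was called in edgeR, with 1 at an unadjusted p below 0.05, Ago2, a core protein of microRNA silencing, at a log2 fold change of 0.29 ± 0.13. Cd81, a tetraspanin, had 89.1 and Nap1l4, a histone chaperone, 82.7 CPM per kilobase, both in the same region of chromosome 7 as Cdkn1c. Zim2, Zim3 and Kcnk9 had no count in any library. Of 15 genes of the insulin-like growth factor axis, 13 were tested and none was called or had an unadjusted p below 0.05; Igfbp5, a binding protein of the growth factors, had 914 ± 104 CPM and Igf2bp1, which binds Igf2 RNA, 336 ± 80.7 CPM. Of 16 genes that set or keep imprints, 14 were tested and none was called or had an unadjusted p below 0.05. Trim28, the partner of Zfp57, had 699.9 ± 50.8 CPM, Dnmt1, the maintenance methyltransferase, 189 ± 25.2 and Zfp57 itself 43.0 ± 6.41 CPM, while Dppa3, which protects imprints in the zygote, had no count.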

How the data were processed

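RNA of 8 embryonic heart libraries was sequenced after Trizol extraction and an Illumina TruSeq RNA library kit, per the labels' protocols. The authors deposited whole-number counts per gene, not normalized; Trimmomatic 0.36, STAR 2.5.2b, featureCounts and Subread 1.5.2 with GRCm38 (mm10) are named, per the submitters' processing notes, while no source used here gives the annotation release or the strand setting. A second deposited table holds a normalized signal, the counts divided by 1 factor per library for 16460 genes, and served only as an alternative.

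The members, gene lists and pairs were chosen with earlier results of these data known, and the fit on the mitochondrial share after seeing the data. Symbols were found for 48970 of 49315 identifiers. The test between the sexes was the 2-sided quasi-likelihood test of edgeR 4.0.16 under R 4.3.3, in its robust form and without covariates. Low genes were removed by filterByExpr (minimum count 10), scaling used TMM, and p-values were adjusted by Benjamini-Hochberg over all genes tested. DESeq2 1.42.0 and limma-voom (limma 3.58.1) were alternatives. CPM used TMM-scaled library sizes, lengths came from the deposited tables, and a pseudocount of 0.5 was added before log2. Correlations used exact permutation tests in Python 3.11.15 with scipy 1.17.1. Promoter and microRNA sequences are from RefSeq, GRCm38.p6; exon overlaps were computed from the coordinates in the deposited tables. Total counts of 20105913 to 51134291 set the counting error, which for members with the fewest counts (15 to 44 for Slc22a18) is large.

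Values per library were given for the member highest per kilobase in each domain, the 4 most and 4 least variable members with a mean of at least 1 CPM, members of pairs with an adjusted p below 0.05 and the 2 members with the smallest p in each direction of the sex contrast; other members with values per library were added after their values were seen.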

Additional observations from a re-analysis of the deposited data

Results flagged for a closer look

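In 70 groups, each the 4 libraries of 1 sex for 1 member, the highest or lowest library was set against the others by Dixon's criterion for 4 libraries, which chance passes in about 1 of 20 groups. It was passed in 8, of which 4 were for Male 2. The groups share the same libraries and are not independent, so this number cannot be read as an excess. Over all genes tested, Male 2 was lowest for 33.4% and highest for 31.9%. In Male 2, H19 was low at 4690 CPM, with the other males at 6500 to 6740, and Ndn was low at 118 CPM, with the others at 139 to 140. Also in Male 2, Asb4 was high at 145 CPM against 86.2 to 94.3, and Slc22a18 at 1.28 CPM against 0.663 to 0.68. Plagl1 was low in Male 1 at 409 CPM, with the other males at 481 to 494. Among the females, Airn was high in Female 3 at 18.4 CPM against 14.0 to 14.4, Phlda2 in Female 1 at 7.32 CPM against 4.56 to 4.94, and Zim1 in Female 4 at 41.8 CPM against 26.2 to 28.1.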

How the results depend on the processing

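No member was called between the sexes under any of the alternatives run (another scaling, filter or tool, the replicate block, the authors' normalized values, or leaving out each library), which called 5 to 9 genes in all, 6 or 7 without 1 library. With the replicate number as a block, edgeR called 5 genes and 0 members; same-numbered libraries did not deviate together (r of -0.417, -0.0752, -0.327 and -0.00616) and no library correlated best with its own number, so the number was not taken as a pairing. The number of pairs with an adjusted p below 0.05, 2 in the main analysis, was 1 without the 2 farthest libraries on the x axis, 0 without Female 1 and Male 2, 4 for deviations from the mean of each sex, 5 by Spearman's rho, 3 with library size alone (H19 and Igf2 being added) and 0 to 3 when 1 library was left out (0 without Female 1, 1 without Female 2, Female 4 or Male 3, and 3 without Male 2); fewer libraries also raise the smallest possible p. Members called for a slope on the mitochondrial share, 20 in the main analysis, were 11 without Female 1 and Male 2 (background 20.6%), 9 without Female 4 and Male 2, and 14 to 20 when 1 library was left out, 14 being without Male 2. The slope of Cdkn1c reversed to 0.0606 without Female 4 and Male 2 (edgeR adjusted p = 0.867); the cause was not tested. Counting error limits Slc22a18, Nap1l5, Magel2 and Rtl1 most.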
